A study of Mus musculus with 59 samples.

Results

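RNA of the prefrontal cortex was compared between mice heterozygous for Ank2 that had received lithium (HT lithium, 10 libraries) and wild-type mice that had received vehicle (WT vehicle, 10 libraries). The 20 libraries, 5 per sex in each group, were taken by genotype and drug from the titles of a series of 59 libraries, whose other groups were HT vehicle, WT lithium and both genotypes with fluoxetine. All mice were C57BL/6J and were studied on postnatal day 25, after 3 weeks of treatment (days 3 to 24) that reached the pups through the milk of the mother. WT vehicle mice differed from HT lithium mice in genotype and drug together, so the comparison holds the sum of both, and the groups with only 1 of the differences are given beside it where a result turns on them. The allele of Ank2, the dose of lithium, the vehicle and the litters were not given in the sources used here. Libraries were treated as replicates, and since nothing in the labels ties them to separate animals or litters, p-values measure only the spread between these libraries, which may be technical.

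Ank2 encodes ankyrin-B, a scaffold that links ion transporters, cell adhesion molecules and spectrin along the axon, and variants of the human gene are known in autism. Lithium, a mood stabilizer, competes with magnesium in a small set of enzymes, among them the kinase GSK3 and the inositol phosphatases. GSK3 marks beta-catenin for destruction, so its inhibition stabilizes the beta-catenin protein and can induce Wnt target genes, while block of the inositol phosphatases limits the recycling of inositol for phosphoinositide signalling. In cortical neurons, synaptic activity and neurotrophins act through calcium and the kinase ERK on rapidly induced transcription factors of the Egr, Nr4a and AP-1 families, which in turn act on secreted and synaptic proteins.

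The deposited values were gene counts that the authors had normalized, here called levels. Each compared library held 22695 to 23745 genes above 0. Xist, from the inactive X chromosome, was at 28230 to 43150 in the 10 female libraries and at no more than 71.3 in the 10 male libraries. Markers of upper cortical layers lay within -0.147 to 0.197 and those of deep layers within -0.378 to 0.18 (mean log2 deviation from the gene means over the series) in the compared libraries. Markers of neighbouring regions set 3 of the 20 libraries apart, that is more than 1 log2 unit above the median library. These were HT lithium male replicate 1 for striatum (1.75) and WT vehicle female replicates 1 (2.36) and 2 (1.85) for olfactory bulb. HT lithium female replicate 2 and male replicate 2 had the lowest olfactory bulb levels of the compared libraries. Results that rest on these libraries are given with and without the libraries of the series that stand apart.

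In the comparison of HT lithium with WT vehicle, 1338 of 16919 genes (7.91%) passed an adjusted p of 0.05 in limma and are called changed below. Of these, 703 (4.16% of all genes) were higher in HT lithium and 635 (3.75%) were lower. The split depended on the scaling, with 840 higher and 476 lower after removal of trends with transcript length and GC content, and 618 higher and 717 lower with upper quartile scaling. Most differences were small (log2 0.21 for the median called gene, sign left out), and 87 called genes differed by more than 1.5-fold. The 2 sexes had the same sign for 688 of the 703 higher and 604 of the 635 lower genes. The comparison is the mean of the female and male differences, so its calls favour genes with 1 sign in both. These counts are therefore no test of 1 sex against the other. Without the libraries that stand apart 1074 genes were called. Leaving out HT lithium female replicate 2 alone left 847, and leaving out WT vehicle female replicate 1 or 2 left 807 or 886. Log2 differences below are HT lithium minus WT vehicle on the log2(level + 1) scale, with their standard error (SE) from the limma model.

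Ank2 (chromosome 3, 126921612 to 127499350 of GRCm38, minus strand) had the smallest p of all genes. Its level was 18076 to 21947 in the HT lithium libraries, with a median of 19672, and 23284 to 30855 in the WT vehicle libraries, with a median of 28928. The 2 groups did not overlap, as was so for 61 genes (0.361%), and the plot of levels by library shows the gap in each sex. The log2 difference was -0.50 (SE 0.038, limma adjusted p = 7.13e-14). A permutation of the labels within each sex over 100000 resamples gave a two-sided p of 7e-05. Without overlap of the groups no relabelling gives a larger difference, so this p is about the smallest that these library numbers allow. HT vehicle libraries were at 18539 to 21059 and WT lithium libraries at 25376 to 29171. HT lithium and HT vehicle differed in Ank2 by 0.03 (adjusted p = 0.657 in limma).

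**Figure D1:**
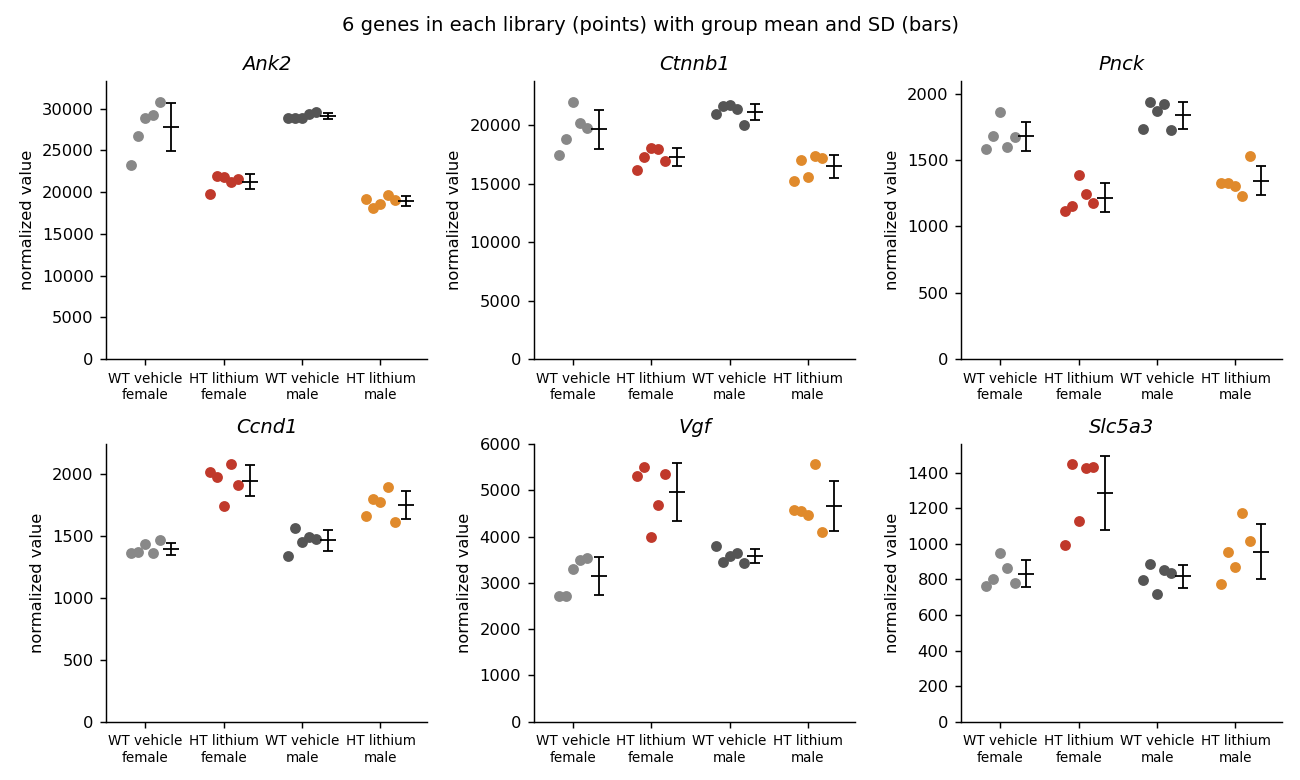
Levels (normalized values, y axes from 0) of Ank2, Ctnnb1, Pnck, Ccnd1, Vgf and Slc5a3 in each HT lithium and WT vehicle library, by sex, with the mean and SD of each 5 libraries as bars beside the points. Ank2 and Pnck were lower and Ccnd1 and Vgf higher in every HT lithium library than in any WT vehicle library, while Ctnnb1 and Slc5a3 overlapped between the groups.

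Of 30 tested ankyrins, spectrins and proteins of the axon initial segment, the site where action potentials start, 3 were higher and 2 lower in HT lithium. That is 16.7% called, against 7.91% of all genes (4.16% higher and 3.75% lower), the shares to set beside each list below. Ank3, which encodes ankyrin-G, the organizer of that segment, was at 11880 to 16373 in HT lithium (median 15045) and 11160 to 14126 in WT vehicle (median 12895). The groups overlapped, and the log2 difference was 0.21 (SE 0.041, limma adjusted p = 0.00134), with 0.34 in females and 0.07 in males. Epb41l1, a protein that joins spectrin to actin, was higher by 0.10 and the actin capping protein gene Tmod2 by 0.13, the latter not called without the libraries that stand apart (0.09, limma adjusted p = 0.133). Ank2 and the tubulin gene Tubb2a (-0.18) were the lower ones. Ank2 is the altered gene that defines the groups, so its call in this list was to be foreseen. Scn8a, the sodium channel that ankyrin-G gathers at that segment, was the only called gene of 33 for sodium, potassium and osmolyte transport (0.19, SE 0.043, limma adjusted p = 0.00488). That list had 3.03% called, below the share of all genes. In females 6 of the 30 were called higher and in males none, and the median over the list was 0.147 in females and -0.0045 in males.

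Of 9 tested genes of the enzymes that lithium binds, 1 (11.1%, against 7.91% of all genes) was called, Gsk3b, which encodes GSK3-beta. Its level was 6600 to 8991 in HT lithium (median 7646) and 5903 to 7927 in WT vehicle (median 6936), with overlap between the groups. The log2 difference of 0.14 (SE 0.046, limma adjusted p = 0.045) came to 0.27 in females and 0.01 in males, and it was not called without the libraries that stand apart (0.11, limma adjusted p = 0.111). The others were not called. Gsk3a differed by 0.03, the inositol monophosphatases Impa1 and Impa2 by 0.02 and 0.04, the inositol polyphosphate phosphatase Inpp1 by -0.07, the nucleotide phosphatases Bpnt1 and Impad1 by 0.04 and 0.01, and the phosphoglucomutases Pgm1 and Pgm2 by 0.03 and 0.00.

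Inositol handling held 4 higher and no lower genes among 31 tested (12.9% called, against 7.91% of all genes). Slc5a3 encodes the sodium-dependent transporter that brings myo-inositol into cells, and lies on chromosome 16 (92058322 to 92087473) within the locus of Mrps6, whose reads it may share. Its level was 995 to 1446 in HT lithium females and 764 to 949 in WT vehicle females, which did not overlap. In males it was 771 to 1175 against 715 to 885, with overlap. The log2 difference was 0.42 (SE 0.075, limma adjusted p = 5.21e-04), with 9 of 10 HT lithium libraries above the WT vehicle mean, and the difference between the sexes was not called. Slc2a13, a proton-coupled inositol transporter, was higher by 0.19, although its call was lost without the libraries that stand apart (0.12, limma adjusted p = 0.139). Cdipt, which joins inositol to lipid to make phosphatidylinositol, was higher by 0.14. Itpr1, the receptor through which inositol trisphosphate releases calcium, was higher by 0.26. When single libraries were left out, the limma adjusted p rose to 0.0746 for Cdipt and 0.0637 for Itpr1.

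Beta-catenin mRNA was lower, and the Wnt list had members in both directions. Ctnnb1 (chromosome 9) was at 15191 to 18017 in HT lithium (median 17125) and at 17493 to 22017 in WT vehicle (median 20572). All 10 HT lithium libraries lay below the WT vehicle mean, and the groups overlapped through WT vehicle female replicate 1 (17493). The log2 difference was -0.27 (SE 0.039, limma adjusted p = 1.23e-05). Ctnnb1 was 1 of the 3 genes called in males (-0.36) and was also called in females (-0.18, limma adjusted p = 0.0262). The female call was lost with length and GC trends removed (-0.13, limma adjusted p = 0.134). The difference between the sexes was not called for Ctnnb1 (limma adjusted p = 0.34). Of 34 Wnt ligands, receptors and signalling proteins 2 were higher and 3 lower (14.7% called, against 7.91% of all genes). The ligand Wnt10a was higher by 0.47 (SE 0.13) and Dkk3, of the Dickkopf family, by 0.25. The ligand Wnt5a was lower (-0.52, SE 0.15), with -0.39 and an adjusted p of 0.0615 in limma without the libraries that stand apart. The secreted Wnt inhibitor Sfrp2 was lower as well (-0.63, SE 0.16), and Ctnnb1 was the third.

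Among 20 genes known as targets of beta-catenin, 2 were higher and 1 lower (15% called, against 7.91% of all genes). Ccnd1, cyclin D1, which drives entry into the cell cycle and is also expressed in neurons, was at 1616 to 2081 in HT lithium and at 1338 to 1565 in WT vehicle. The groups did not overlap, and the log2 difference was 0.37 (SE 0.044, limma adjusted p = 2.05e-07). It was 0.48 in females and 0.26 in males. Prickle1, a planar polarity gene, was higher by 0.18, and Apcdd1, a membrane inhibitor of Wnt signalling, was lower (-0.24), with -0.19 and an adjusted p of 0.102 in limma without the libraries that stand apart.

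Pnck, a calcium/calmodulin-dependent kinase of the CaM kinase I family on the X chromosome, had the second smallest p. It was at 1114 to 1390 in HT lithium females against 1585 to 1860 in WT vehicle females. In males it was at 1230 to 1532 against 1726 to 1941, so neither sex overlapped. The log2 difference was -0.46 (SE 0.053, limma adjusted p = 9.31e-08), -0.47 in females and -0.45 in males, where it was also called. It was the only called gene (3.45%, against 7.91% of all genes) among 29 CaM kinases and calcium signalling genes, of which 21 had a positive difference. Colgalt1, which adds galactose to collagen, had the fourth smallest p and was lower (-0.22, SE 0.031).

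Of the genes known to follow neuronal activity, 8 of 18 Egr, Nr4a and Npas4 factors (44.4%), 9 of 26 secreted and synaptic effectors (34.6%), 6 of 13 ERK feedback genes (46.2%) and 0 of 8 AP-1 genes were called higher in HT lithium, and none of these 4 lists had a called lower member. Over all genes 4.16% were called higher and 3.75% lower. In WT lithium against WT vehicle 13 of the 18, 11 of the 26, 4 of the 13 and 5 of the 8 were called higher (1.33% of all genes). Median log2 differences there were 0.574, 0.272, 0.179 and 0.707, against 0.357, 0.27, 0.248 and 0.326 here. In HT lithium against HT vehicle 5, 6, 5 and 0 were called higher (2.75% of all genes). HT vehicle against WT vehicle and HT lithium against WT lithium called none in these lists. Promoters of 3 of these genes are shown because they were called together and stand for the Egr factors and the ERK feedback proteins. The windows run from 250 bases before to 50 bases after the annotated start (RefSeq, GRCm38.p6), 5′ to 3′ on the strand of the gene. Capitals mark matches, on either strand, to the short cyclic AMP response element (CRE) core TGACG or to the CArG box, the site of serum response factor. The first is Egr2 at chr10:67537619-67537918 on the plus strand, 1 of 5 annotated starts and 1 of the 3 that hold both motifs, the second Egr4 at chr6:85513540-85513839 on the minus strand, and the third Dusp6 at chr10:99262981-99263280 on the plus strand.
Egr2: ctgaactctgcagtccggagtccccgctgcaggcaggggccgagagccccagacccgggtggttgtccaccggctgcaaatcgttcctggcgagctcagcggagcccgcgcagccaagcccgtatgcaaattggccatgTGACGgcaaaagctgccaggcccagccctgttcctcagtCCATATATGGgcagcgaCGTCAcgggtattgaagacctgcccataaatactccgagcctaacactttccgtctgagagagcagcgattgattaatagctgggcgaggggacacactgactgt
Egr4: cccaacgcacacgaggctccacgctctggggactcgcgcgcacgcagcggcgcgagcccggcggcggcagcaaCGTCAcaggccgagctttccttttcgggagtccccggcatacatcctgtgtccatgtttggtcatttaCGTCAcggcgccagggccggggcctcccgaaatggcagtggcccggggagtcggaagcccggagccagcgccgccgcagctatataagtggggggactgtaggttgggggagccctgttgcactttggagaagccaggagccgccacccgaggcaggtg
Dusp6: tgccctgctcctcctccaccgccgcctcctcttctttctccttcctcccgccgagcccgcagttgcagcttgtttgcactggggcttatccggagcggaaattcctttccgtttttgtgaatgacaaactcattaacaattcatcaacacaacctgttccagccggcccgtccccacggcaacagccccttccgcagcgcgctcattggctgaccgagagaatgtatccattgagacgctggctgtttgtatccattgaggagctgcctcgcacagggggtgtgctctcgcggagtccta

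The Egr2 window held 2 TGACG cores, at bases 140 and 196, and a CArG box at base 179, and the Egr4 window held 2 TGACG cores, at bases 74 and 142. Of the other Egr2 windows, the one that starts at 67535249 held no match and the one at 67537316 only a CArG box. The Dusp6 window held no match to these or to the other motifs searched, the palindromic CRE TGACGTCA (which contains the core), the EGR site GCGTGGGCG and the AP-1 site TGACTCA, nor did those of the other 3 called ERK feedback genes searched (Spry2, Spred1 and Spred3). Over 32851 promoters of this length, 20.8% held the TGACG core, 1.63% a CArG box, 1.79% the palindromic CRE, 5.2% the AP-1 site and 0.612% the EGR site. These shares count single windows, whereas the counts of factors below take a match in any window of a gene, which raises them. Genes on chromosome 18, among them the called Egr1 and Spry4, were left out of the search by rule, and the called Egr3 and Klf10 had no promoter entry. Of the activity factors that were searched, 3 of the 5 called and 8 of the 9 not called held the core in at least 1 annotated window. The Egr windows were added after the values were seen.

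Among 18 factors of the Egr, Nr4a and Npas4 group, 8 were higher and none lower, with a median log2 difference of 0.357 against -0.00363 over all genes. Ier5, an immediate early gene that regulates heat shock factor, was at 1565 to 2352 in HT lithium (median 2053) and 1244 to 1628 in WT vehicle (median 1331). Only the lowest HT lithium library, female replicate 3, lay under the highest WT vehicle library, female replicate 1, and the log2 difference was 0.53 (SE 0.089, limma adjusted p = 2.5e-04). Egr3, a zinc finger factor downstream of synaptic activity, was higher by 0.47 (SE 0.093, limma adjusted p = 0.0014), with 3784 to 5603 in HT lithium females against 2113 to 3139 in WT vehicle females. In males Egr3 overlapped (3313 to 4619 against 3005 to 4010).

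The other called factors varied more between libraries. Egr2 ranged from 138 to 605 in HT lithium (median 255) and from 85.3 to 309 in WT vehicle (median 145), and its log2 difference of 0.89 (SE 0.29, limma adjusted p = 0.0454) lost its call when single libraries were left out (adjusted p up to 0.11 in limma). Klf10, an immediate early factor of the Krüppel family, was higher by 0.57 (SE 0.16). Egr4 differed by 0.38 (SE 0.11), with 0.70 in females and 0.06 in males. Its call was also lost when single libraries were left out (adjusted p up to 0.0725 in limma). Klf4, Ier3 and Egr1, the remaining called factors, differed by 0.43, 0.33 and 0.43. Nr4a1, an orphan nuclear receptor, and Npas4, a factor induced by calcium entry, differed by 0.41 and 0.19 and were not called.

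All 8 tested AP-1 genes had a positive difference, with a median of 0.326, and 0 passed the limma test, with 3 at an unadjusted p under 0.05. With array weights 4 of the 8 were called higher (median 0.365). Fos differed by 0.56 (SE 0.24, limma adjusted p = 0.136) and Junb by 0.46 (SE 0.19, limma adjusted p = 0.114). In WT lithium against HT vehicle, whose group means use none of the 20 libraries, 5 of the 8 were called higher, with Fos at 0.94.

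Of 13 ERK feedback genes 6 were called, and each was higher. They encode inhibitors that ERK signalling induces and that act back on it. Dusp6, a phosphatase that inactivates ERK, was at 1834 to 3070 in HT lithium (median 2559) and 1470 to 2037 in WT vehicle (median 1839). All 10 HT lithium libraries were above the WT vehicle mean, and the log2 difference was 0.46 (SE 0.10, limma adjusted p = 0.00348). Spry4, a Sprouty inhibitor of growth factor receptor signalling, was at 343 to 677 against 236 to 373, a log2 difference of 0.54 (SE 0.12, limma adjusted p = 0.00309). Spry2 differed by 0.28, and the Sprouty-related genes Spred1, Spred2 and Spred3 by 0.28, 0.25 and 0.26. Without the libraries that stand apart 6 of the 13 were called higher as well.

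**Figure D2:**
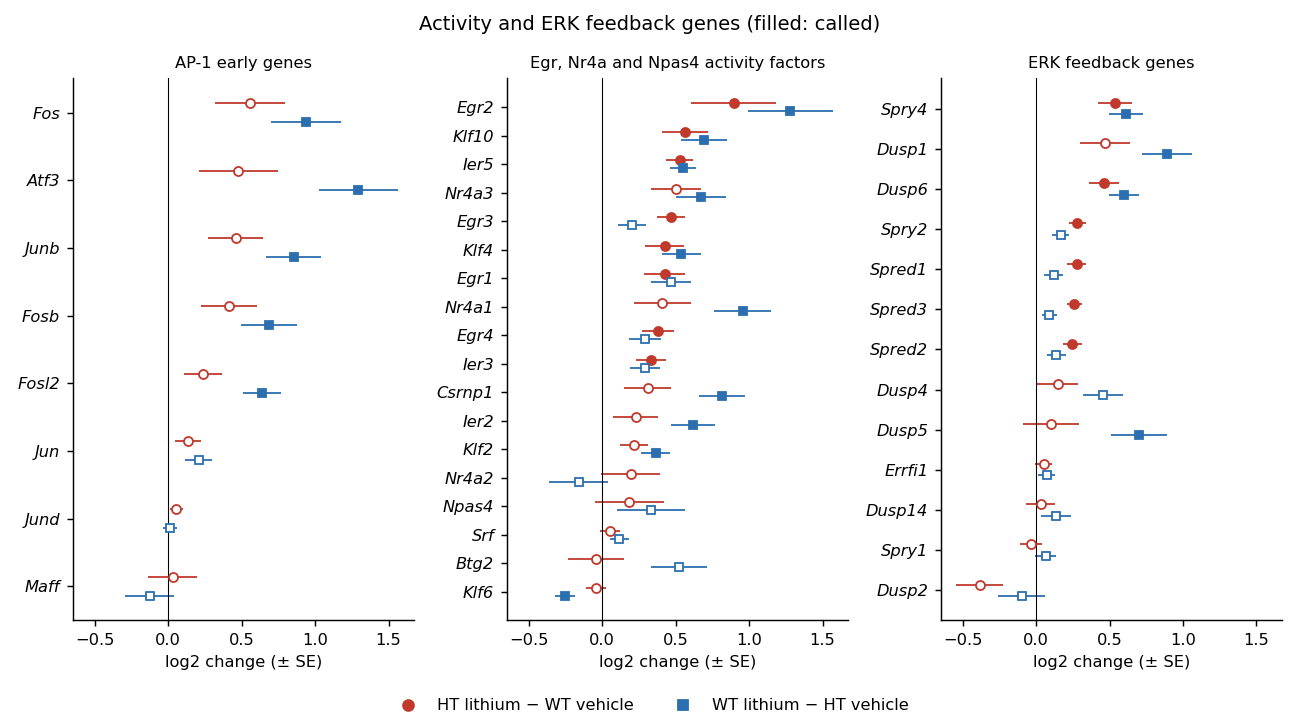
Log2 differences with SE (x axes) of all tested AP-1, Egr, Nr4a and Npas4, and ERK feedback genes, as circles for HT lithium minus WT vehicle and as squares for WT lithium minus HT vehicle, which share no library. Filled symbols passed the test. Circles lie to the right of 0 for 8 of 8, 16 of 18 and 11 of 13 genes, with AP-1 genes filled only as squares and Spry2, Spred1, Spred2 and Spred3 filled only as circles.

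Of 26 secreted and synaptic proteins known to be induced by activity, 9 were higher and none lower. Vgf, a neuropeptide precursor that neurotrophins induce, was at 3989 to 5561 in HT lithium and 2706 to 3799 in WT vehicle. The groups did not overlap, with a log2 difference of 0.52 (SE 0.072, limma adjusted p = 9.46e-06). Bdnf, the brain-derived neurotrophic factor, was at 937 to 1480 in HT lithium (median 1171) and 745 to 968 in WT vehicle (median 869). A single HT lithium library, male replicate 1, lay below the highest WT vehicle library, and the log2 difference was 0.45 (SE 0.090, limma adjusted p = 0.00137). It came to 0.50 in females and 0.40 in males.

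Plk3, a polo-like kinase, was higher by 0.49 (SE 0.094), and the neuronal pentraxin Nptx2, which gathers AMPA receptors at synapses, by 0.31 (SE 0.079). Homer1, a scaffold of glutamate receptors, was higher by 0.33, Nptx1 by 0.32 and Gadd45b, which responds to activity and stress, by 0.35. Arc, which removes AMPA receptors from synapses, had a difference of 0.99 (SE 0.30, limma adjusted p = 0.0301). Arc ranged from 1733 to 8546 in HT lithium and from 880 to 4392 in WT vehicle, 8 of 10 HT lithium libraries were above the WT vehicle mean, and the call was lost without the libraries that stand apart (0.84, limma adjusted p = 0.0737). Among the 15 largest rises outside these lists were Rnf39, a ring finger protein (0.79), Tnfrsf25, a death domain receptor (0.71), Syt2, the fast calcium sensor of release (0.63), the collagen tail of acetylcholinesterase Colq (0.68), the carbonic anhydrase Car12 (0.61), Gpr3, a receptor that raises cyclic AMP (0.57), and the syntrophin Sntb2 (0.57). Bc1, a noncoding RNA of dendrites, was higher by 0.89 (SE 0.28), and Sowahb (0.56) was at 403 to 593 in HT lithium against 312 to 380 in WT vehicle, without overlap. When single libraries were left out, the limma adjusted p rose to 0.0801 for Bc1, 0.0784 for Car12, 0.0569 for Colq and 0.0501 for Sowahb.

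Of 19 circadian clock genes 3 were called (15.8%, against 7.91% of all genes), all higher. Per1, a repressor of the clock that also responds to CREB and glucocorticoids, was at 2409 to 4187 in HT lithium (median 3292) and 2070 to 3132 in WT vehicle (median 2679), a log2 difference of 0.31 (SE 0.083, limma adjusted p = 0.0154). Arntl, which encodes the activator BMAL1, was higher by 0.21, and Bhlhe40, a repressor in the clock, by 0.30. The call of Bhlhe40 was lost when single libraries were left out (adjusted p up to 0.0855 in limma). The times of day of collection were not given in the sources used here. Of 27 glucocorticoid-induced genes 2, Per1 and Tmem252, were higher and 3 were lower (18.5% called). The lower ones were the metallothionein Mt1 (-0.29), its neighbour Mt2, at 1060 to 1699 in HT lithium against 1447 to 2042 in WT vehicle (-0.40, SE 0.11), and the lipase inhibitor Angptl4 (-0.73, SE 0.20). Of 17 thyroid hormone response genes 2 (11.8%) were lower, Flywch2 (-0.27) and Cirbp, an RNA-binding protein that cold induces. Cirbp was lower (-0.42, SE 0.076, limma adjusted p = 5.64e-04), with 1121 to 1688 against 1539 to 2309.

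Of 56 potassium and calcium channel genes 8 were higher and none lower (14.3% called, against 7.91% of all genes). The median of this list was 0.138 in females, with 7 called higher and 1 lower, and 0.0218 in males, with no call. Kcnc1, the Kv3.1 channel that allows fast firing, was at 5639 to 6355 in HT lithium and 5019 to 5816 in WT vehicle, a log2 difference of 0.17 (SE 0.035, limma adjusted p = 0.00157). Kcna1, the axonal Kv1.1 channel, was higher by 0.37 (SE 0.085), the big-conductance channel Kcnma1 by 0.20 and the calcium channel subunit Cacnb1 by 0.19. Of 46 glutamate receptor and postsynaptic density genes 5 were higher, among them the NMDA receptor subunit Grin2a (0.25), the scaffolds Shank1 (0.21), Shank2 (0.19) and Shank3 (0.19) and the adhesion protein Nlgn3 (0.16), and 1 was lower, the kainate receptor subunit Grik1 (-0.18). The called share of these 46 was 13%. In females 11 of the 46 were called higher and none lower, with a median of 0.101. In males none was called, 16 of the 46 were positive and the median was -0.0413. Without the libraries that stand apart Nlgn3 (0.10, limma adjusted p = 0.125) and Grik1 (-0.18, limma adjusted p = 0.0526) were not called. Of 23 GABA receptor and inhibitory synapse genes 2 were higher (8.7%, near the share of all genes), Gabrb1 (0.21) and Gabbr1 (0.09, and 0.07 with a limma adjusted p = 0.0679 without the libraries that stand apart). Of 26 cholesterol synthesis genes 4 (15.4%) were higher by 0.12 to 0.26, of which 1, Hsd17b7, was called without the libraries that stand apart.

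In this bulk tissue, fewer cells of a type and less RNA per cell cannot be told apart. Of 20 inhibitory neuron markers 1 was higher and 4 were lower (25% called, against 7.91% of all genes). The lower ones were Calb2 and Dlx1, described below, Adarb2 (-0.47, SE 0.135), an RNA-binding protein, and Htr3a (-0.26, SE 0.079), a serotonin-gated channel. Htr3a was called (-0.26) and Adarb2 was not (-0.33, limma adjusted p = 0.0778) without the libraries that stand apart. The higher one, Pvalb, the calcium buffer of fast-spiking interneurons, was at 596 to 720 in HT lithium females and 375 to 626 in WT vehicle females. In males it was at 704 to 1000 against 490 to 689, so that the groups overlapped in females and not in males. The log2 difference was 0.49 (SE 0.098, limma adjusted p = 0.0014). Of 16 excitatory neuron markers 1 (6.25%, against 7.91% of all genes) was called. It was Neurod2, a factor of these neurons, at 1809 to 2319 in HT lithium against 1184 to 1795 in WT vehicle with no overlap (0.33, SE 0.089). No marker of oligodendrocytes (of 17) or microglia (of 15) was called, while 2 of 15 astrocyte markers, Acsl6 (0.12) and the glutamate transporter Slc1a2 (0.25), were higher, the latter with 0.16 and an adjusted p of 0.062 in limma without the libraries that stand apart.

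The largest falls included genes that are abundant in interneurons of the olfactory bulb, among them Calb2 (calretinin, -1.16), the homeobox gene Dlx1 (-0.90), the zinc finger factors Sp9 (-0.94) and Tshz1 (-0.83), the G protein subunit Gng4 (-0.89) and Igfbpl1 (-1.32). Calb2 was at 334 to 1921 in HT lithium (median 1276) and at 1049 to 6102 in WT vehicle (median 2285). Its highest libraries were WT vehicle female replicates 1 and 2 (6102 and 4878) and its lowest HT lithium male replicate 2 (334) and female replicate 2.

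These are the libraries at the ends of the olfactory bulb marker level. All 9 tested markers of that region were lower in HT lithium, with a median log2 difference of -1.45, and none was called. Their mean level ran from -3.67 to 0.45 in HT lithium and from -1.06 to 2.68 in WT vehicle. Eomes, a factor of bulb projection neurons, was at 0.876 to 359 against 116 to 1180, and S100a5, of sensory neuron axons, was at 0 in 2 HT lithium libraries and the other 8 markers in none. Without the libraries that stand apart Calb2 (-1.0, limma adjusted p = 0.129), Dlx1 (-0.74, limma adjusted p = 0.118), Sp9 (-0.78), Tshz1 (-0.69), Gng4 (-0.72) and Igfbpl1 (-1.31) were not called, and 1 of 20 inhibitory neuron markers was called lower instead of 4. The median of the olfactory bulb markers was still -1.25 in those libraries (-0.927 in females and -1.52 in males), and HT lithium female replicate 2 and male replicate 2 were among them. The part of bulb RNA in these falls was not tested. Mkrn3, an imprinted ubiquitin ligase gene that restrains the onset of puberty, kept its call (-0.72, limma adjusted p = 1.66e-04), as did Cd1d1, Egf, Samd3, Ctxn3 and Angptl4 among the 15 largest falls. Mkrn3 was at 55.5 to 88.3 in HT lithium and 97.4 to 163 in WT vehicle, with no overlap.

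**Figure D3:**
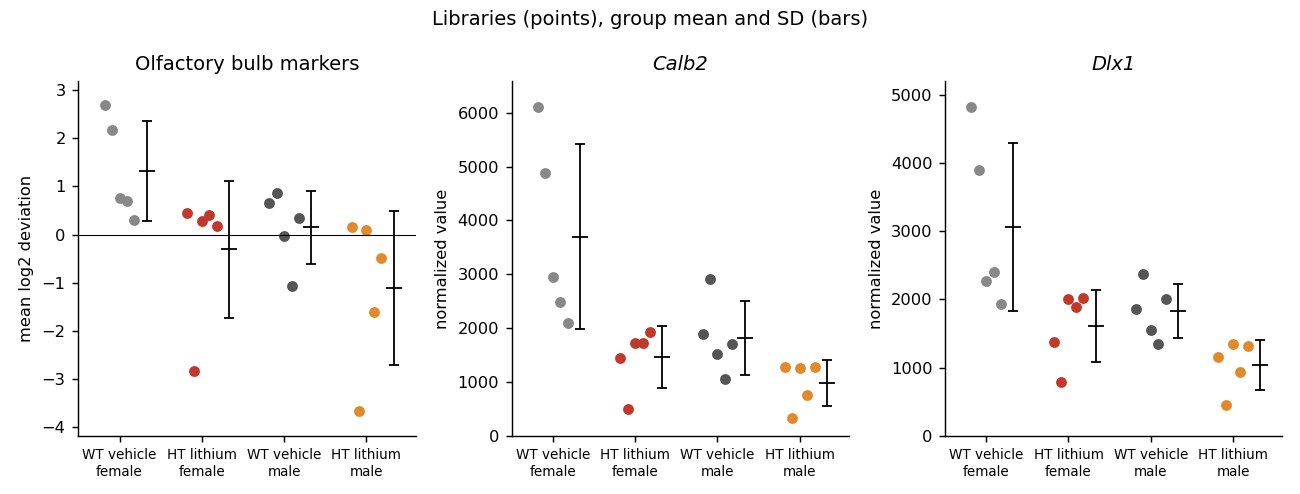
Mean log2 deviation of olfactory bulb markers and levels of Calb2 and Dlx1 in each HT lithium and WT vehicle library, by sex (points), with mean and SD (bars). The 2 WT vehicle female libraries with the highest marker levels have the highest Calb2 and Dlx1, and the lowest HT lithium library of each sex is lowest in all 3 panels.

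Of 82 tested ribosomal protein genes, 37 were lower and none higher (45.1% called, against 7.91% of all genes), with a median log2 difference of -0.136. HT lithium was lower for 32 of them against HT vehicle (median -0.136) and for 9 against WT lithium (median -0.128). None was called in WT lithium or in HT vehicle against WT vehicle (medians -0.00987 and -0.00685). Rps18, of the small subunit, was at 2677 to 2822 in HT lithium females and 3413 to 3731 in WT vehicle females, which did not overlap. In males it was at 3327 to 3793 against 3545 to 4073. Its log2 difference was -0.24 (SE 0.042, limma adjusted p = 4.04e-04), with -0.38 in females and -0.10 in males. The list's median was -0.254 in females, where 59 of 82 were called lower, and -0.0234 in males, where none was called. Many ribosomal genes have near-identical pseudogene copies, and how such reads were assigned was not given in the sources used here.

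Among nuclear genes of the respiratory chain no gene was higher, with 5 of 80 lower overall (6.25%, against 7.91% of all genes called) and 37 of 80 lower in females (median -0.165, against 0.0281 in males). With array weights 25 were lower, and 13 without the libraries that stand apart. Ndufa4 (-0.16), Ndufa6 (-0.14) and Ndufb11 (-0.16), of complexes IV and I, were among them. All 13 mitochondrially encoded mRNAs had a positive difference and 4 (30.8%) were called. The largest was mt-Nd4l (0.59), and without the libraries that stand apart 1 was called. The smallest p was that of mt-Nd6 (0.41, SE 0.092), whose gene lies on the opposite strand from its neighbours, so that its value depends on whether strand was used in counting.

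A trend with transcript length accompanied these falls in females. The slope of log2 level on log2 transcript length was 0.0079 to 0.0469 in HT lithium females and -0.035 to -0.0131 in WT vehicle females, a difference of 0.0478 (exact permutation test, two-sided p = 0.00794, the smallest that 5 against 5 allows). In males the difference was -0.000665 (exact permutation p = 0.889). WT lithium females were at -0.026 to -0.0102 and HT vehicle females at -0.021 to 0.0485. The highest of the latter, replicate 1, also had a low ribosomal level (mean log2 deviation -0.238). Positive slopes were not particular to HT lithium females (mean 0.0281), since the fluoxetine groups of the series had means of 0.0138 to 0.0332. Of 4 classes of transcript length, genes in the longest had a median log2 difference of 0.0768 in females and 0.00682 in males, and those in the shortest -0.0407 and 0.00536. After the trends with length and GC content were removed from each library, 25 ribosomal genes were called lower, with a median of -0.0921, while 2 genes of the respiratory chain were called lower and 1 higher. The part of the length trend in the called genes was not tested beyond this.

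**Figure D4:**
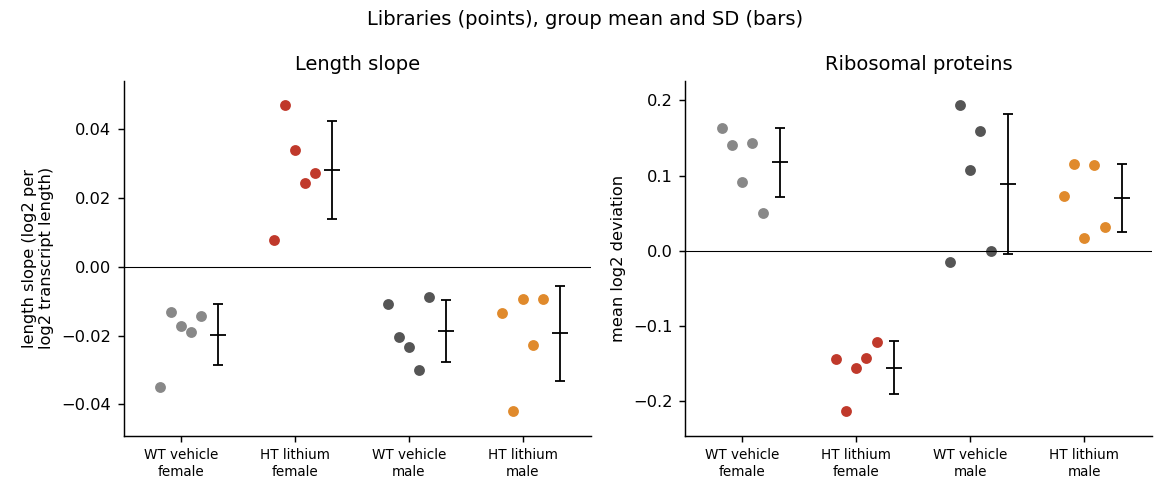
Slope of log2 level on log2 transcript length (left) and mean log2 deviation of ribosomal protein genes (right) in each HT lithium and WT vehicle library, by sex (points), with mean and SD (bars). The 5 HT lithium females have slopes above 0 and ribosomal levels below those of the other 15 libraries.

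The sexes differed in the number of calls. In females 1711 genes (10.1%) were called, 838 higher (4.95%) and 873 lower (5.16%), and in males 3 (0.0177%), namely Ank2, Pnck and Ctnnb1. In males 1458 genes had an unadjusted p under 0.05. The female and male libraries were separate, although whether males and females shared mothers was not given in the sources used here. Of the 838 genes higher in females, 77.3% had a positive difference in males, where 49.9% of all genes did, and of the 873 lower genes 64.1% had a negative difference (50.1% of all genes). Their median difference was 0.267 in females and 0.061 in males for the first set, and -0.268 and -0.0321 for the second.

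The difference between the sexes itself was called for 76 genes (0.449%), 22 with a higher and 54 with a lower value in females. After removal of the length and GC trends 19 genes were called and the balance turned, to 14 with a higher and 5 with a lower value in females. Leaving out single libraries gave 13 (WT vehicle female replicate 1) to 187 (HT lithium female replicate 1) genes. Shank1 was at 0.48 in females and -0.06 in males. Its sex difference was not called with the length and GC trends removed (limma adjusted p = 0.0956). The smallest p were those of Zmiz1, a transcriptional coactivator, at 0.39 in females and -0.17 in males, Rpl27 (-0.50 and 0.06), Elob, an elongin subunit (-0.29 and 0.10), Rpl22l1 (-0.55 and 0.10) and Cops9, of the signalosome (-0.46 and 0.06). Rpl22l1 was at 534 to 706 in HT lithium females against 823 to 911 in WT vehicle females, and at 850 to 950 against 729 to 879 in males.

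**Figure D5:**
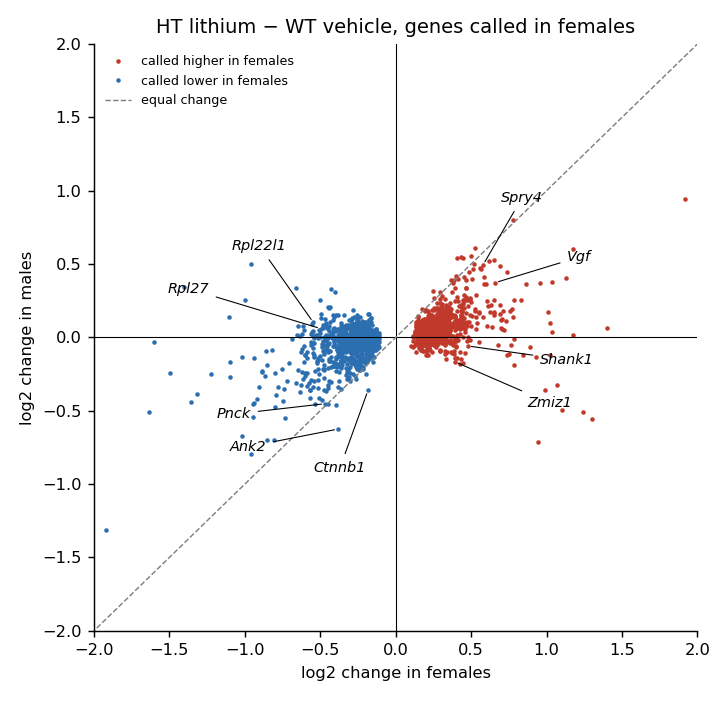
Log2 differences between HT lithium and WT vehicle in females (x axis) and males (y axis) of the genes called in females, with a dashed line of equal change. There are 2 points outside the axes. Points of higher genes lie mostly above 0 and those of lower genes mostly below 0 in males, closer to 0 than in females.

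The groups with 1 of the differences were compared in the same model. HT lithium against HT vehicle gave 847 called genes (5.01%, with 2.75% higher and 2.26% lower), WT lithium against WT vehicle 376 (2.22%, with 1.33% higher and 0.892% lower), HT lithium against WT lithium 93 (0.55%) and HT vehicle against WT vehicle 1 (0.00591%), Ank2. These comparisons share libraries with the main one and with each other. Their counts rested on single libraries, since leaving out 1 library gave 356 (HT vehicle female replicate 4) to 1597 (HT vehicle female replicate 1), 214 (WT lithium male replicate 4) to 435, and 15 (WT lithium male replicate 1) to 141 (WT lithium female replicate 4) for the first 3. With array weights the first 3 counts were 2614, 1346 and 1360, and with the compared groups alone the third was 449. The lithium difference in HT minus that in WT was called for no gene in limma, with 1139 at an unadjusted p under 0.05, for 6 genes without the libraries that stand apart and for 217 with array weights. The smallest p was that of Sat1, which breaks down polyamines (HT lithium minus HT vehicle -0.06, WT lithium minus WT vehicle 0.31, limma adjusted p = 0.231 for the difference).

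WT lithium against HT vehicle shares no library with HT lithium against WT vehicle and holds the same drug difference with the genotype difference turned. The spread of each gene was estimated from all 59 libraries in both, so calls shared by the 2 comparisons are not fully independent. WT lithium against HT vehicle called 400 genes (2.36%), 236 higher (1.39%) and 164 lower (0.969%). Of the 703 genes higher in the main comparison, 86 (12.2%, and 36.4% of the 236 called higher there) were also called higher, and 80.8% had a positive difference, against 50.2% of all genes. Of the 635 lower genes, 42 (6.61%, and 25.6% of 164) were also called lower and 74.8% had a negative difference, against 49.8% of all genes. Pnck differed by -0.39 in these libraries, Ctnnb1 by -0.26, Colgalt1 by -0.21, Ccnd1 by 0.19, Vgf by 0.37, Ier5 by 0.55, Plk3 by 0.50, Bdnf by 0.43, Dusp6 by 0.60, Spry4 by 0.61, Per1 by 0.50, Pvalb by 0.40 and Kcnc1 by 0.18, and each of these 13 was called. Slc5a3 (0.21), Gpr83 (0.24), Egr3 (0.20), Mkrn3 (-0.13) and Rps18 (0.00) were not. Ank2 turned with the genotype, to 0.49.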

How the data were processed

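RNA-seq of prefrontal cortex was deposited as 1 table of 59 libraries. Its values are a signal, estimated gene counts that the authors had normalized, per the submitters' processing notes, which name Salmon 0.11.2, R 3.6.0, DESeq2 1.19.11 and the GRCm38 build. Whole reads could not be recovered, since 28.3 to 66.8% of low values were whole multiples of a step within 0.1 steps. Depth is therefore unknown, and the test for normalized values was used.

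From these values, log2(level + 1) was fitted with limma 3.58.1 (trend, robust) in R 4.3.3 for the 16919 genes whose mean level over the 59 libraries reached 10. The model had 12 group means and 47 residual degrees of freedom, and 10 comparisons were drawn from it. P-values are two-sided, with Benjamini-Hochberg adjustment over all genes tested and a threshold of 0.05. Figures and summaries used Python 3.11.15, SciPy 1.17.1 and pandas 2.3.3. Gene positions are of GRCm38 and promoters of RefSeq GRCm38.p6. The model was tested on simulated data. These held no difference between the sexes, no length trend and no libraries that stand apart, so the simulation does not cover those features.

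The rule for named genes took Ank2, the 15 largest rises and 15 largest falls among called genes that had 1 sign in females and males and a mean level from 50 upwards, and up to 4 called members of each of 42 lists. It also took the lithium targets and the smallest p of the sex and genotype comparisons, and up to 5 in males. Predicted genes were counted and not named, and further list members were named after their values were seen. The compared groups and lists were chosen with earlier results of these data known. Libraries were set apart where markers of another region or tissue lay over 1 log2 unit above the median. Alternatives were other pseudocounts, filters, scalings, weights, a replicate block, removal of length and GC trends, and leaving out libraries.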

Additional observations from a re-analysis of the deposited data

Results flagged for a closer look

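In 19 of 250 groups of 10 libraries 1 library lay far from the other 9 by Dixon's criterion, which chance gives in about 1 in 20. HT lithium male replicate 1, the library with the highest striatum markers (1.63, the others -0.25 to 0.366), was high for Rasd2 (2272, the others 1163 to 1528), Colq (142, the others 68.8 to 99), Mt1 (3415, the others 2066 to 2731) and Gpr83 (953, the others 571 to 765). WT vehicle male replicate 2 was high for striatum markers in its group (0.675, the others -0.288 to -0.0811). Among the other HT lithium libraries, Rnf39 was low in female replicate 3 (43.2, the others 64.3 to 81.4), Tnfrsf25 high in female replicate 5 (391, the others 131 to 269) and Egr4 high in female replicate 2 (1003, the others 488 to 744). Ank3 was low in male replicate 2 (11880, the others 14257 to 16373), Neurod2 high in male replicate 4 (2319, the others 1809 to 2080) and Htr3a low in male replicate 3 (153, the others 184 to 219).

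Among the WT vehicle libraries, female replicate 1 was low for Gabrb1 (3575, the others 4628 to 5524) and high for Adarb2 (2118, the others 899 to 1519). Gpr3 was low in female replicate 2 (101, the others 153 to 211) and Tnfrsf25 high in female replicate 3 (231, the others 91.9 to 158). Male replicate 4 was high for mt-Nd4 (236765, the others 187691 to 211627) and Elob (2774, the others 2409 to 2572), and male replicate 5 low for Rpl22l1 (729, the others 823 to 911).

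The difference between HT lithium and WT vehicle differed between females and males for 76 genes in limma. Female minus male values were 0.5576 for Zmiz1, 0.5361 for Shank1, -0.3204 for Rpl26, -0.3828 for Elob, -0.5551 for Rpl27, -0.6482 for Rpl22l1 and -0.521 for Cops9. With length and GC trends removed, Shank1 (limma adjusted p = 0.0956) and Rpl26 (limma adjusted p = 0.109) lost this call. Zmiz1, Elob, Rpl27, Rpl22l1 and Cops9 kept it.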

How the results depend on the processing

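With no filter on low values 869 genes were called between HT lithium and WT vehicle and 17 for the difference between the sexes. The counts were then 485 for HT lithium against HT vehicle, 222 for WT lithium against WT vehicle, 32 for HT lithium against WT lithium and 4 for HT vehicle against WT vehicle. With the compared groups alone 46 genes were called in males and 121 for the difference between the sexes. Array weights gave 2169 genes, 180 in males, 424 for the difference between the sexes, 1387 for WT lithium against HT vehicle and 217 for the lithium by genotype difference. With length and GC trends removed 12 genes were called in males and 19 differed between the sexes. The split into higher and lower then moved to 855 and 590 in females (838 and 873 as reported) and to 651 and 281 for HT lithium against HT vehicle (465 and 382 as reported), and 52 genes were called for HT lithium against WT lithium. Without the libraries that stand apart 917 genes were called in females and 78 in males. Leaving out 1 library gave 807 to 1438 genes, with 885 to 1832 in females, 3 to 9 in males, 13 to 187 for the difference between the sexes and 269 to 498 for WT lithium against HT vehicle. In females 998 genes were called without HT lithium female replicate 2, and 885 and 1040 without WT vehicle female replicates 1 and 2.

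Replicate numbers gave no sign of pairing between HT lithium and WT vehicle. Within a sex, same-numbered libraries correlated by -0.238 to 0.168 and differently numbered ones by -0.347 to 0.323. Shared litters or batches were not tested by this. A replicate block gave 1288 genes, 1686 in females and 59 for the difference between the sexes, and with length and GC trends removed 12 in males and 16 for that difference. Genes without a call that changed sign were Pgm2 (0.0428 with array weights, 0.0334 with length and GC trends removed, with or without the block) and Impad1 (-0.0187 with the trends removed, with or without the block). Leaving out 1 library gave -0.0373 to 0.0317 for Pgm2, -0.00283 to 0.0239 for Impad1 and -0.0675 to 0.19 for Impa2. Of 112 called genes that the rule for named genes took, 62 were called in every setting and none changed sign. The others lost their call in at least 1 setting. Genes named after their values were seen are not in this count. The causes of these changes were not tested. Depth per library was not known, since the values are normalized.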

Other observations

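Among the 61 genes whose 10 HT lithium libraries did not overlap the 10 WT vehicle libraries, several with roles in signalling, calcium and the cytoskeleton were not in the lists above. They were chosen after their values were seen. Mapk3, which encodes the kinase ERK1, was lower (-0.22, SE 0.041), and so was Srrm2, a splicing factor (-0.27, SE 0.053). Both were also called lower in WT lithium against HT vehicle, which shares none of the libraries (-0.21 and -0.25). Mpp3, a membrane scaffold (0.26), and Slc25a25, a calcium-regulated mitochondrial carrier (0.14), were higher, and called higher in those other libraries too (0.29 and 0.23).

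Inf2, a formin that shapes actin (0.40, SE 0.057), Stim2, a calcium sensor of the endoplasmic reticulum (0.30), Atp2b2, a calcium pump of the plasma membrane (0.26), and Hapln4, a link protein of perineuronal nets (0.47), were higher. The histone H3.3 genes H3f3a (-0.27) and H3f3b (-0.35) and the tubulin Tuba1a (-0.16) were lower. In WT lithium against HT vehicle none of these 7 was called. Medag (0.42, limma adjusted p = 0.0958) was the only gene of the 61 that was not called.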
